A study of Mus musculus with 52 samples.

Results

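Oxidative phosphorylation is carried out in mitochondria by 5 protein complexes. Complexes I, III and IV pump protons while they pass electrons to oxygen, complex II feeds in electrons from succinate, and complex V uses the proton gradient to make ATP. A few subunits are encoded in mitochondrial DNA, and all others, with the assembly factors, come from nuclear genes scattered over the chromosomes, many of which have CpG-rich promoters and binding sites for the factors NRF1, GABP (an ETS factor) and YY1. The promoters of these nuclear genes were examined here. A gene was included when its symbol began with Nduf, Uqcr or Atp5, was Sdha, Sdhb, Sdhc, Sdhd or Cyc1, or had the form Cox4 to Cox8 followed by a, b, c or a digit. The rule found 89 promoters of 89 genes among the 20633 promoters measured: 35 of complex I, 8 of complex I assembly factors, 4 of complex II, 9 of complex III, 16 of complex IV and 17 of complex V. Cox4i1 and Cox4i2 did not meet the pattern and were kept apart. Ndufa4 was counted with complex I by its name, although its product is now assigned to complex IV.

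Accessibility was measured by calibrated ATAC-seq, in which the Tn5 transposase tags open DNA and Drosophila cells added to each sample serve as a reference for scaling, in mouse embryonic stem cells (mESCs) grown in serum with LIF. The 4 lines carry loxP sites in Kdm2a, in Kdm2b or in both, and a CRE recombinase that 4-hydroxytamoxifen activates. KDM2A and KDM2B bind unmethylated CpG-rich DNA through a zinc finger (CXXC) domain, and their long forms demethylate histone H3 through a JmjC domain. In Kdm2a/b-JmjC cells, derived from mice with loxP sites around JmjC exons of both genes and a heterozygous ROSA26-CreErt2 allele, treatment deletes those exons and with them the long forms of both proteins. In Kdm2a/b-CXXC cells it deletes the CXXC domain of both, in Kdm2a-CXXC cells that of KDM2A alone, and in Kdm2b-CXXC cells that of KDM2B alone. The lines with a floxed Kdm2a CXXC exon were made by genome editing and are each an individual clone. Kdm2a/b-CXXC was made from Kdm2b-CXXC cells, and Kdm2a-CXXC from Rosa26::CreERT2 cells. Untreated cells of the same line, which carry the same floxed alleles and the recombinase, were compared with cells given 800 nM 4-hydroxytamoxifen for 96 h. There were 4 libraries per group in Kdm2a/b-CXXC and 3 per group in the other lines, 26 ATAC libraries in all. The excised exons lie inside the genes, so the promoter values do not check the treatment labels.

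Each value is the number of mouse reads in a 400 bp interval centred on a transcription start, divided by the spike-in size factor of the library, and is called calibrated reads below. The libraries held between 1488370 and 3025358 promoter reads, and the median promoter of a library had 58 to 108 reads. The 89 promoters took between 0.674% and 0.749% of the promoter reads of a library, and their median depth was 113 to 234 reads. In 87 of 89 genes the annotated start of the listed RefSeq transcript lay within 200 bp of the interval's centre. The exceptions were Ndufb3, whose start lay 202 bp from the centre and so just outside its interval, and Atp5pb, whose start lay far outside. The values listed for Atp5pb are thus not those of its start site. In 24 of 89 genes (27.0%) the interval overlapped that of another gene, against 9.69% of all promoters, and reads in the shared bases belong to both. The promoters of mESC marker genes (Pou5f1, Sox2, Nanog, Klf4, Esrrb, Zfp42, Tfcp2l1 and Tdgf1) had a median percentile of 58.1 among all promoters, and those of markers of other cell types (Gata6, Sox17, T, Neurod1, Alb, Ins2, Myh6, Col1a1, Thy1 and Ptprc) 33.0. The ranges overlapped, from 16.6 to 88.4 over 9 promoters of the mESC markers and from 8.21 to 54.6 over 10 of the others. In untreated Kdm2a/b-JmjC cells the 2 medians were 44.2 and 33.5.

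Short sequence words known to be bound by NRF1, ETS factors and YY1 were more frequent in these promoters than in promoters at large, and the YY1 word stood at a particular place. The YY1 word, AAGATGGC or its reverse complement GCCATCTT, was present in 18 of 89 intervals (20.2%), against 4.59% of all promoters and 6.58% of CpG-rich ones. The NRF1 word, GCATGCGC or GCGCATGC, was present in 13 (14.6%), against 3.93% and 6.10%. The ETS word, CCGGAAG or CTTCCGG, was present in 24 (27.0%), against 14.1% and 21.7%. In 46 promoters at least 1 of the 3 words was found and in 43 none was. All 3 together were found in 0 promoters, ETS with YY1 in 3, NRF1 with ETS in 4 and NRF1 with YY1 in 2. Complex I held 11 of the 18 promoters with the YY1 word, and complex V held 7 of the 24 with the ETS word.

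The YY1 word lay 1 to 100 bases downstream of the interval's centre in 17 of the 18 promoters (94.4%), and in 16 of them it read AAGATGGC in the direction of transcription. Among all promoters with the word and a known strand, 54.5% had it at 1 to 100 bases downstream and 45.3% in that position and direction. Windows of 30 bases are shown for 8 of them, chosen to cover every complex and both exceptions, with the word in capitals, along the strand of the gene and from the GRCm38.p6 (mm10) reference. Offsets are those of the first base of the word from the base at the centre.
Ndufs4, chr13:114388041-114388070, minus strand, offset 36: ttgcctacaggAAGATGGCggcggtctcaa
Ndufb8, chr19:44555386-44555415, minus strand, offset 12: cggagaaggtgAAGATGGCtgccgcccggg
Ndufaf8, chr11:120098933-120098962, plus strand, offset 10: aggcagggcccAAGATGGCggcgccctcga
Sdhc, chr1:171150563-171150592, minus strand, offset 23: ggccggaactcAAGATGGCtgcgttcttgc
Uqcrc1, chr9:108936705-108936734, plus strand, offset 68: acggaagttagAAGATGGCggcgtccgcag
Atp5o, chr16:91931540-91931569, minus strand, offset 73: ccgcccgggaaAAGATGGCcgcgcctgcag
Cox8a, chr19:7217551-7217580, minus strand, offset 48, reverse word: cggctggttcgGCCATCTTgactccctgac
Atp5j, chr16:84835046-84835075, minus strand, offset -65: aaagtgtaggaAAGATGGCggagtcttagc

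The ETS word lay between 60 bases upstream and 40 bases downstream of the centre in 19 of 24 promoters (79.2%), against 53.8% of all promoters with the word. The NRF1 word lay within the 100 bases upstream in 8 of 13 (61.5%), against 56.5%. These windows differ between the words. In the window used for ETS the NRF1 word lay in 9 of 13 (69.2%), against 50.1%, and the YY1 word in 11 of 18 (61.1%), against 44.9%. For ETS, windows are shown from each of the 5 complexes, among them Sdhb, the iron-sulphur subunit of complex II, and Cox5b, to which the comparison of the lines returns.
Ndufs1, chr1:63176820-63176849, minus strand, offset -15: ggcctcggctaCTTCCGGcggaactgcagg
Sdhb, chr4:140961266-140961295, plus strand, offset 6: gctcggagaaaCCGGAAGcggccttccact
Uqcrq, chr11:53430808-53430837, minus strand, offset 6: ttccgctcctcCCGGAAGtgacgggcgaaa
Uqcrh, chr4:116075062-116075091, minus strand, offset -9: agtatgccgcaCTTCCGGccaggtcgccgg
Cox5b, chr1:36691546-36691575, plus strand, offset 70: tcagcctgttcCCGGAAGtgcatctgcttg
Atp5h, chr11:115419939-115419968, minus strand, offset -37: caaggagagaaCTTCCGGcaactctcttcc
For NRF1, the windows of Ndufaf5 and Atp5g2 hold 2 overlapping words, forward and reverse.
Ndufa8, chr2:36049328-36049357, minus strand, offset -53: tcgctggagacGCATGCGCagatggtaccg
Ndufaf5, chr2:140170651-140170680, plus strand, offset 16: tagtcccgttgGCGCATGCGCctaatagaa
Uqcr11, chr10:80406807-80406836, minus strand, offset -3: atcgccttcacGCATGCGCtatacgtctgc
Cox6c, chr15:35938170-35938199, minus strand, offset 59: catcgactcttGCGCATGCgtgctgctgga
Atp5g2, chr15:102671069-102671098, minus strand, offset -39: gctccggccGCGCATGCGCagagccttccc

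The other words are set against all promoters and then against CpG-rich ones. The SP/KLF word (GGGCGG or CCGCCC) was found in 48 (53.9%), against 56.3% and 82.7%, and so was less frequent here than in CpG-rich promoters. The NFY word (CCAAT or ATTGG) was found in 33 (37.1%), against 40.03% and 37.8%. The TATA word (TATAAA or TTTATA) was found in 7 (7.87%), against 10.4% and 4.54%, and the E-box CACGTG in 8 (8.99%), against 9.54% and 11.9%. The CRE word TGACGTCA was found in 5 (5.62%), against 2.56% and 3.7%, and in the central 200 bp in 3 (3.37%), against 2.065% and 3.001%. The word of the estrogen-related receptors, TCAAGGTCA or TGACCTTGA, was found in 3 (3.37%), those of Atp5b, Atp5g3 and Sdhd, against 0.373% and 0.195%. A match to a word does not show that a factor binds there.

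By base composition 74 of the 89 promoters (83.1%) were CpG-rich (GC content of at least 50% and a ratio of observed to expected CpG of at least 0.6), against 54.6% of all promoters. The 15 others were those of Ndufa4l2, Ndufb3, Ndufs4, Uqcr10, Cox6a2, Cox6b2, Cox6c, Cox7a1, Cox7b, Cox7b2, Cox8b, Cox8c, Atp5g1, Atp5j2 and Atp5pb, and complex IV held 8 of them. A start of another protein-coding gene on the opposite strand, within 500 bp upstream, was present at 28 of 89 promoters (31.5%), against 9.93% of all promoters with a known strand and 15.4% of CpG-rich ones. Complex IV had 0 such pairs among 16 promoters, while complex I had 13 of 35 and complex II had 3 of 4. Atp5j, which encodes coupling factor 6 of the ATP synthase, was paired with Gabpa, the DNA-binding subunit of GABP. Ndufs1, the largest complex I subunit, was paired with Eef1b2, a translation elongation factor, Sdhd with Timm8b, a mitochondrial import chaperone, and Ndufs6 with the mitochondrial ribosomal protein gene Mrpl36.

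In untreated cells the promoters ranked high. Each promoter was given its percentile among the 20633 promoters in each library, and percentiles were averaged over the untreated libraries of a line and then over the 4 lines. The median of the 89 promoters was 72.7, 78 of them lay above the 50th percentile and 14 above the 90th. The median was close to that of all CpG-rich promoters (70.6) and far from that of all other promoters (20.6). Among the 74 CpG-rich members of the set it was 75.3, and among the 15 others 48.5. Medians by complex were 70.6 for complex I, 84.4 for its assembly factors, 76.9 for complex II, 74.97 for complex III, 71.8 for complex IV and 80.4 for complex V. The ranges of the complexes overlapped widely, with complex I between 30.6 and 94.7, complex IV between 15.0 and 93.1 and complex V between 25.9 and 99.7. The 25.9 belongs to Atp5pb, whose interval does not hold its start, and the next lowest of complex V was Atp5l at 53.3. Complex II was the narrowest group, from Sdha at 70.8 to Sdhb at 89.1. Promoters with the YY1 word had a median of 80.1 against 72.1 for those without it, those with the ETS word 78.4 against 71.8, and those with the NRF1 word 70.9 against 73.7. Those with a divergent partner had a median of 76.9 against 72.1 for those without, while all promoters with such a partner had 78.5. Intervals of divergent pairs can hold reads of both starts.

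**Figure D1:**
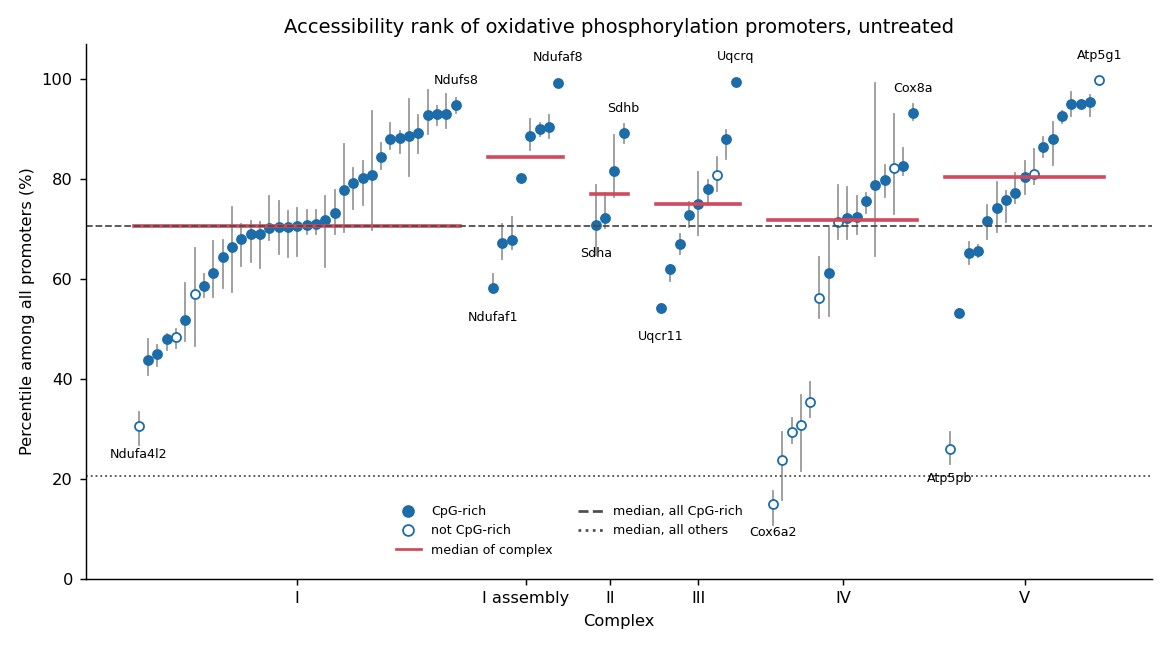
Accessibility rank of each of the 89 promoters by complex (x axis), as the percentile among all promoters (y axis, %). Points are means over the 4 lines in untreated cells, grey bars run from the lowest to the highest line, filled points are CpG-rich promoters and red lines are medians of the complexes. Uqcrq, Ndufaf8 and Atp5g1 sit above 99, and the open points at the bottom of complex IV include Cox6a2 at 15.0.

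The highest promoters came from different complexes. Atp5g1, which encodes the c subunit of the complex V rotor, had 423 ± 54.5 calibrated reads in untreated Kdm2a/b-JmjC cells (SD, n = 3), 333 ± 18.8 in Kdm2a/b-CXXC (n = 4), 473 ± 62.5 in Kdm2a-CXXC (n = 3) and 458 ± 89.6 in Kdm2b-CXXC (n = 3). Its percentile was 99.7, although its interval (chr11:96075432-96075831, minus strand) was not CpG-rich and held none of the NRF1, ETS and YY1 words. A part of that interval upstream of the centre is shown for its NFY words in opposite directions, which overlap and are in capitals.
Atp5g1, chr11:96075708-96075737, minus strand: gatgacgccagCCAATTGGaacgtggagag
Uqcrq, a small complex III subunit that shares its upstream region with Gdf9, reached 99.4, and Ndufaf8, a complex I assembly factor next to Tepsin, 99.3. Ndufs8, an iron-sulphur subunit, led complex I at 94.7, Cox8a led complex IV at 93.1 and Sdhb led complex II at 89.1. The upstream sequence of Ndufs8 held the NFY word 3 times, in capitals.
Ndufs8, chr19:3912776-3912895, minus strand, the 120 bases before the centre: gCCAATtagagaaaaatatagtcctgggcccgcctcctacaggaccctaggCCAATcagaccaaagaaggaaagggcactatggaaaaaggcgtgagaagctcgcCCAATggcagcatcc

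The genes for catalytic, core and other subunits listed here ranged from Cox6c at 35.4 to Atp5g1 at 99.7. In complex I, Ndufv1, the NADH-binding flavoprotein, had a percentile of 93.0 and Ndufs1 88.6. In complex III, Uqcrc1, a core protein, had 87.9, the Rieske iron-sulphur protein Uqcrfs1 74.97 and cytochrome c1 (Cyc1) 61.9. In complex II the anchor subunits Sdhc and Sdhd had 81.6 and 72.2. In complex IV, Cox5b had 78.8, Cox5a 72.1 and Cox6c 35.4. In complex V the catalytic beta subunit Atp5b had 95.1 and the alpha subunit Atp5a1 80.4, while the 3 genes for the same c subunit, Atp5g1, Atp5g2 and Atp5g3, had 99.7, 92.6 and 71.5. Of the named subunits Cox6c was the lowest, with 32.9 ± 6.43 calibrated reads in untreated Kdm2a/b-JmjC cells (SD, n = 3).

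Promoters of tissue-restricted isoforms differed widely. Cytochrome c oxidase has isoforms that replace the ubiquitous subunit in particular tissues, such as Cox6a2, Cox7a1 and Cox8b in heart and skeletal muscle and Cox6b2, Cox7b2 and Cox8c in testis. Cox6a2 was the lowest of the 89 promoters at percentile 15.0, with 8.80 ± 4.16 calibrated reads in untreated Kdm2a/b-JmjC cells (SD, n = 3), and with 2 to 28 reads in any untreated library. The ubiquitous Cox6a1 had 82.7 to 227 calibrated reads over the 26 libraries and Cox6a2 1.13 to 21.3, and Cox6a1 was higher in 26 of 26. The ubiquitous Cox8a, with 172 to 426, likewise exceeded Cox8b (4.09 to 41.8) and Cox8c (11.9 to 43.1) in 26 of 26 libraries. Cox7b exceeded Cox7b2, and Ndufa4 exceeded its paralogue Ndufa4l2, in 26 of 26, with median log2 ratios of 1.62 and 2.17.

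Cox7a1 and Cox6b2 did not follow this order. Cox7a1 had 111 to 325 calibrated reads and its ubiquitous counterpart Cox7a2 117 to 289, and Cox7a2 was higher in 13 of 26 libraries. Cox6b2 had 95.5 to 242 and Cox6b1 66.6 to 221, and Cox6b1 was higher in 5 of 26. Cox6b1 and Cox7a1 lie on chromosome 7 in a region where the lines differed (below), and the median log2 ratio of Cox7a2 to Cox7a1 was 0.24 in untreated Kdm2a/b-JmjC cells and -0.45 in untreated Kdm2a/b-CXXC cells. The ratios are between unlike intervals of equal length, and accessibility was not compared with expression here. Sequences before Cox6a2, Cox8b and Ndufa4l2, 3 of the 5 low promoters of the sets, are shown, with the words of the SP/KLF, NFY, TATA, E-box and CRE searches in capitals. Cox8b had none of these in the stretch, Cox6a2 an NFY word and Ndufa4l2 an SP/KLF word, and of the low promoters not shown Cox7b2 had NFY and SP/KLF words upstream of the centre and Cox8c an SP/KLF and an NRF1 word.
Cox6a2, chr7:128206368-128206487, minus strand, the 120 bases before the centre: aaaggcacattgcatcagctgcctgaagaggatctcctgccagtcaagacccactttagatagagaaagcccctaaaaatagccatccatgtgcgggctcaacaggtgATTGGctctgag
Cox8b, chr7:140900448-140900567, minus strand, the 120 bases before the centre: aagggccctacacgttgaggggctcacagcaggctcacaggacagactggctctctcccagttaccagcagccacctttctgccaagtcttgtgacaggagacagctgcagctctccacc
Ndufa4l2, chr10:127514819-127514938, plus strand, the 120 bases before the centre: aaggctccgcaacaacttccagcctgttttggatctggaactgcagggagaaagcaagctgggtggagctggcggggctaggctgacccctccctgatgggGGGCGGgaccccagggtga

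**Figure D2:**
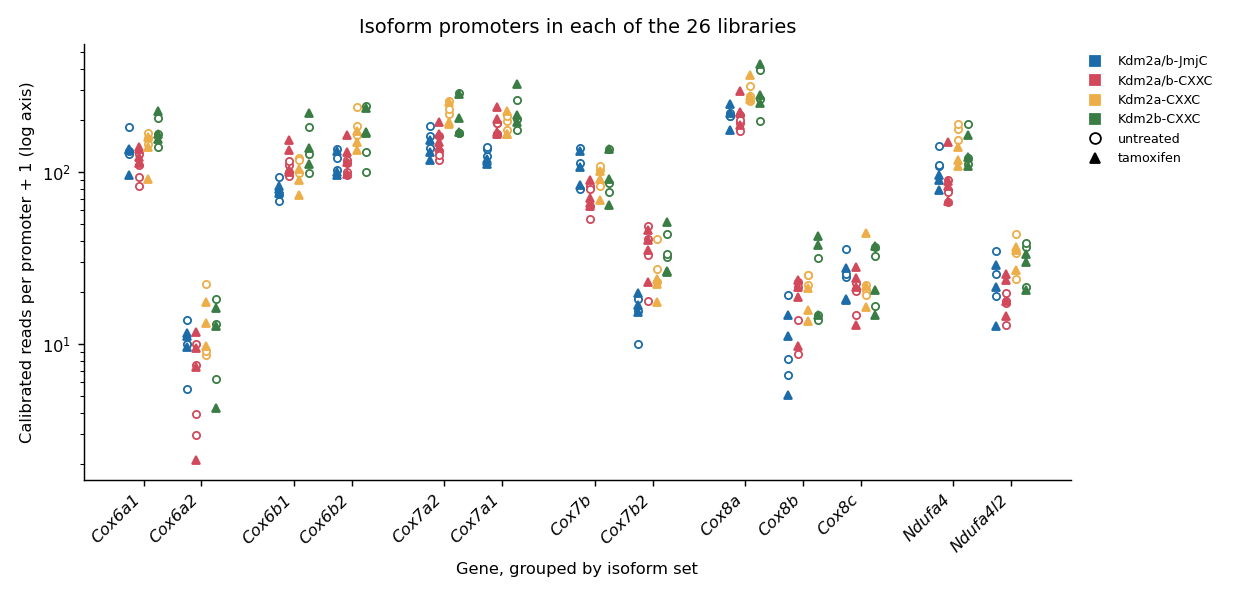
Calibrated reads plus 1 (y axis, log scale) at isoform promoters (x axis, grouped by set) in each of the 26 libraries. Colours are lines, open circles untreated and triangles tamoxifen libraries. Cox6a2, Cox7b2, Cox8b, Cox8c and Ndufa4l2 lie below their ubiquitous counterparts in all 26 libraries, while Cox7a1 and Cox6b2 overlap theirs.

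No promoter of the set was called after treatment in any of the 4 lines. A promoter was called when its adjusted p from limma was under 0.05 and its fold change over 1.4 in either direction. In Kdm2a/b-JmjC cells 0 of 89 promoters were called, with 0.0757% of all tested promoters called (13 of 17174). In Kdm2a/b-CXXC 0 of 88 were called, with 0% of all 16413, and Cox6a2 was left untested by the filter on low reads. In each of the single-gene lines 0 of 89 were called, with 0% of all 17727 and 17930. At an unadjusted p under 0.05, 19, 2, 5 and 0 of the promoters passed in the lines in the order in which they were introduced, against 20.6%, 4.65%, 8.39% and 0.669% of all tested promoters. edgeR on the reads also called 0 of them in each line, and DESeq2 called 0.

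The promoters followed the bulk of all promoters in each library. In Kdm2a/b-JmjC cells the median log2 fold change after treatment was -0.22 for the 89 promoters and -0.21 for all tested promoters, and 79 of the 89 had a value below 0. In Kdm2a-CXXC it was -0.18 for both, with 81 of 89 below 0, and leaving out tamoxifen replicate 1 or 3 gave a median of the set of -0.072 or -0.28. In Kdm2a/b-CXXC it was 0.11 against 0.09, with 70 of 88 above 0, and in Kdm2b-CXXC 0.09 against 0.10, with 64 of 89 above 0. The libraries were also aligned by TMM scaling, which uses a trimmed mean of the log ratios of promoters between libraries. For the set the medians were then -0.015 in the JmjC line, 0.022 in the line with both CXXC exons floxed, and -0.011 in each single-gene line. The medians of all tested promoters were then -0.0067, 0.00071, -0.011 and -0.0030 in the order in which the lines were introduced. On this scale 0 promoters of the set were called in any line, against 0%, 0.104%, 0% and 0.00558% of all tested promoters in that order. At an unadjusted p under 0.05, 5 passed in the JmjC line, 3 higher and 2 lower, against 5.63% of all tested (2.62% higher and 3.01% lower), so that the counts there were not on 1 side as they were on the calibrated scale. In Kdm2a/b-CXXC 3 passed, all higher, against 9.64% (4.67% higher and 4.97% lower). In Kdm2a-CXXC 5 passed, 1 higher and 4 lower, against 6.2% (2.69% higher and 3.51% lower), and 41 of the 89 had a value above 0. In Kdm2b-CXXC 6 passed, 3 higher and 3 lower, against 7.79% (3.42% higher and 4.36% lower). The median of the promoters minus that of all tested promoters, library by library against the untreated mean, ranged from -0.060 to 0.055 over the 26 libraries. In the Kdm2b-CXXC line the library medians of all promoters themselves ranged from -0.34 to 0.53, and the 2 treatments overlapped. By replicate number these medians were 0.41, -0.34 and -0.064 untreated and 0.53, -0.16 and -0.055 after treatment. Each treated library thus lay above the untreated one of the same number.

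**Figure D3:**
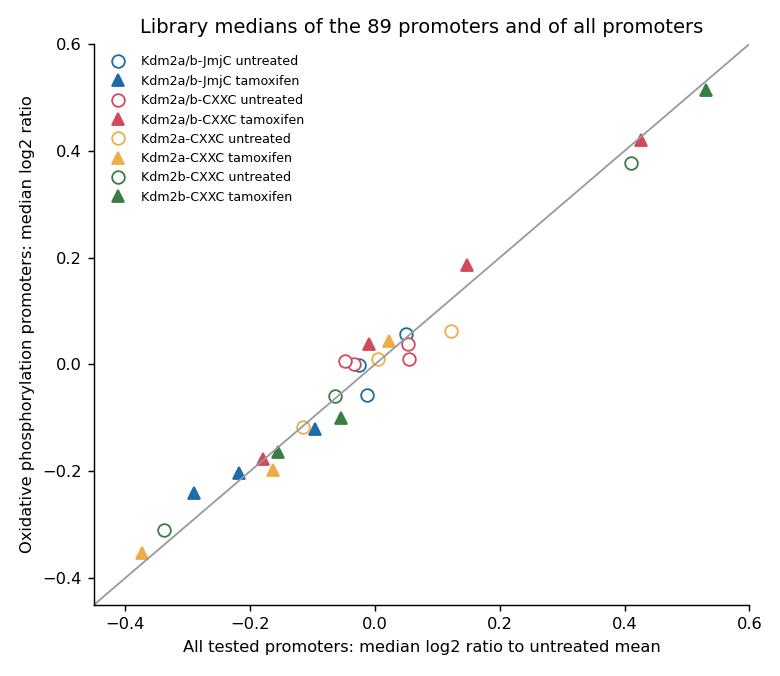
Median log2 ratio to the untreated mean of the line for all tested promoters (x axis) and for the oxidative phosphorylation promoters (y axis) in each of the 26 libraries. Colours are lines, open circles untreated and triangles tamoxifen libraries, and the grey line marks equal values. All libraries lie within 0.06 of that line.

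In Kdm2a/b-JmjC cells each treated library was lower than each untreated library at 27 of the 89 promoters (30.3%), against 23.2% of all tested promoters, and above them at 0 (against 0.908%). The 19 promoters with an unadjusted p under 0.05 all had lower values after treatment (21.3%, against 20.3% of all tested), and 0 had higher ones (against 0.262%). Without tamoxifen replicate 2 the 19 became 9, while the share of all tested promoters, in either direction, fell from 20.6% to 13.8%. The smallest p belonged to Atp5g1, with 447, 461 and 360 calibrated reads untreated and 293, 358 and 333 after treatment. The treated libraries were all lower than the untreated ones, by a narrow margin. The log2 fold change was -0.36 (SE 0.11), with a 95% interval from -0.58 to -0.15 and an adjusted p of 0.0773 from limma. Ndufaf3, a complex I assembly factor, had 220, 209 and 161 calibrated reads untreated and 160, 117 and 142 after treatment. Its groups did not overlap, and the log2 fold change was -0.49 (SE 0.15), with an interval from -0.78 to -0.20 and an adjusted p of 0.0782 from limma. Relative to the median of all promoters these differences were -0.15 and -0.28.

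Of the groups, complex II had the lowest median in Kdm2a/b-JmjC cells, -0.32 on the log2 scale, and its 4 promoters each lay below the median of all promoters. Sdha, the flavoprotein that oxidises succinate, had 134, 138 and 191 calibrated reads untreated and 136, 95.5 and 124 after treatment, and Sdhc had 187, 190 and 211 against 183, 145 and 134. The treated values of Sdhc were all below the untreated ones, while those of Sdha overlapped, and neither passed the test (adjusted p from limma 0.175 and 0.149). Complex IV had a median of -0.11, with 13 of its 16 promoters above the median of all promoters. The order was not the same in Kdm2a-CXXC cells, where complex II had the highest median of the groups (-0.11, with 3 of 4 promoters above the median of all promoters) and complex IV the lowest (-0.22, with 6 of 16 above).

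In Kdm2a/b-CXXC cells, in which both proteins lose the CXXC domain, the treated libraries lay above all untreated ones at 0 of 88 promoters (against 1.80% of all tested) and below at 0 (against 0.597%). The 2 with an unadjusted p under 0.05 (2.27%, against 3.58% of all tested for higher values and 1.07% for lower ones) were accessory subunits of complex I. Ndufb6 had 96.8, 77.7, 99.3 and 76.5 calibrated reads untreated and 145, 121, 118 and 95.5 after treatment, with a log2 fold change of 0.44 (SE 0.20) and an adjusted p of 0.996 from limma. Ndufa3 had 85.9, 111, 85.3 and 87.1 untreated and 169, 130, 111 and 93.9 after treatment, with a log2 fold change of 0.42 (SE 0.20, adjusted p of 0.996 from limma). Tamoxifen replicate 4 fell within the untreated range at both promoters, and replicate 3 did at Ndufa3. The median log2 ratio of all tested promoters to the untreated mean was 0.43 in tamoxifen replicate 1 and -0.18 in replicate 4.

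In Kdm2a-CXXC cells every treated library was lower than every untreated library at 13 of 89 promoters (14.6%, against 13.4% of all tested) and above at 0 (against 1.12%). The 5 with an unadjusted p under 0.05, all lower (5.62%, against 8% of all tested for lower values and 0.395% for higher ones), were Ndufa4, Ndufaf4, Ndufa13, Uqcrfs1 and Ndufc2, the last named after its value was seen. Ndufa4 had 154, 177 and 189 calibrated reads untreated and 108, 116 and 140 after treatment, with a log2 fold change of -0.51 (SE 0.20) and an adjusted p of 0.581 from limma. Ndufaf4, an assembly factor, had 157, 158 and 162 against 81.1, 124 and 135, with -0.52 (SE 0.20, adjusted p of 0.581 from limma). Neither pair of groups overlapped. Uqcrfs1, with 227, 190 and 208 against 131, 156 and 178, also had separate groups, at -0.43 (SE 0.19).

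In Kdm2b-CXXC cells 2 promoters, Cox6c and Ndufa13, had all treated libraries above all untreated ones (2.25%, against 2.13% of all tested), and 0 had them below (against 0.446%). At an unadjusted p under 0.05, 0 promoters passed, against 0.519% of all tested for higher and 0.151% for lower values. Cox6c, a low promoter, had 43.8, 33.3 and 26.3 calibrated reads untreated and 71.0, 48.3 and 55.5 after treatment, with a log2 fold change of 0.75 (SE 0.39), an interval from -0.01 to 1.51 and an adjusted p of 1.000 from limma. Cox8b had 13.8, 12.7 and 30.7 against 41.8, 13.8 and 36.7, with overlapping groups and a log2 fold change of 0.63 (SE 0.46).

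**Figure D4:**
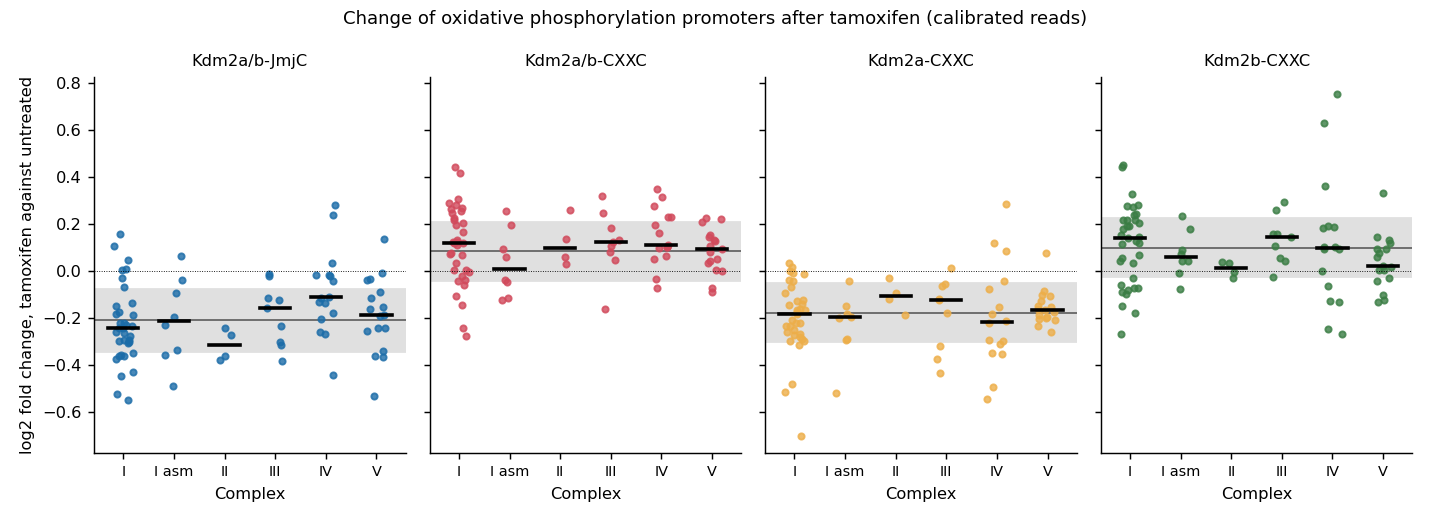
Log2 fold change of calibrated reads after tamoxifen (y axis) at each tested promoter, by complex (x axis, asm for assembly factors), with a panel for each line. Black bars are medians of the complexes, and the grey line and band are the median and the interquartile range of all tested promoters. In each panel most points lie around the grey line, which stands at -0.21, 0.09, -0.18 and 0.10 from left to right.

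The precision set how small a change could be seen. The 95% interval of the fold change lay wholly within 1.4-fold in either direction at 35 of 89 promoters in Kdm2a/b-JmjC, 41 of 88 in Kdm2a/b-CXXC, 23 of 89 in Kdm2a-CXXC and 0 of 89 in Kdm2b-CXXC. It lay within 2-fold at 84, 88, 85 and 76. The median half-width of the interval was 0.33, 0.38, 0.38 and 0.72 on the log2 scale. The Kdm2b-CXXC libraries differed in scale as a whole, in the same order by replicate number in both treatments. The intervals come from a fit that did not use that number. With TMM scaling, which removes differences in scale together with any change common to all promoters, the median SE of the set there was 0.12 against 0.37 on the calibrated scale. The catalytic, core and other subunits named above, 17 in all, had log2 fold changes from -0.38 (Cyc1) to -0.01 (Uqcrfs1) in Kdm2a/b-JmjC, from -0.04 (Cox6c) to 0.35 (Cox5b) in Kdm2a/b-CXXC, from -0.43 (Uqcrfs1) to 0.01 (Uqcrc1) in Kdm2a-CXXC and from -0.13 (Atp5a1) to 0.75 (Cox6c) in Kdm2b-CXXC.

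Other genes of the pathway were described by counts alone. Among the promoters of 36 assembly factors of complexes I to V that lie outside the name pattern, such as Surf1, Bcs1l and Tmem70, 0 were called in any line. In the order in which the lines were introduced, their median log2 fold changes were -0.17, 0.09, -0.20 and 0.09, against -0.21, 0.09, -0.18 and 0.10 for all tested promoters, and their median percentile in untreated cells was 84.9. Lyrm7, a complex III assembly factor, reached 99.3. The 16 promoters of 13 regulators of the pathway, such as Nrf1, Gabpa, Yy1 and Tfam, included 14 to 16 that could be tested in a line and 0 called, with medians of -0.22, 0.02, -0.09 and 0.09 and a median percentile of 64.7. Tfb1m reached 97.2, Esrra 94.9, Gabpa 93.5 and Tfam 90.4, while Ppargc1a, which encodes a coactivator of mitochondrial genes in energy-demanding tissues, stood at 18.1. Of the genes set aside, Cycs (somatic cytochrome c) stood at 86.2, Cyct (its testis form) at 48.1, Cox4i1 at 76.9 and Cox4i2 at 32.6, and 0 of 4 were called in any line. The lists of assembly factors and regulators were chosen with earlier results of these data known.

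The 4 lines differed among themselves before any treatment, and some of these promoters moved with the region they lie in. To compare lines, whose tables were scaled separately, the reads of each promoter were taken per 1000000 promoter reads of the library, and the log2 mean of a line was set against the mean of the other 3 lines. By this definition the 4 differences of a promoter cancel out, so higher values in some lines bring lower ones in others. As Kdm2a/b-CXXC was made from Kdm2b-CXXC cells, the 4 lines are not independent of each other. Cox5b, a nuclear subunit of complex IV on chromosome 1, differed most. It had 219, 191 and 185 reads on this scale in the untreated libraries of Kdm2a-CXXC. Untreated libraries of the JmjC line had 92.1, 97.8 and 93.2, those of the line with both CXXC exons floxed 52.1, 64.0, 66.1 and 62.7, and those with the Kdm2b CXXC exon floxed 61.8, 60.7 and 74.1. The first lay above all others, and those of the JmjC line above those of the remaining lines. The log2 difference of Kdm2a-CXXC from the other lines was 1.46 in untreated and 1.27 in treated cells, and the percentile of the promoter ranged from 64.6 to 99.1 between lines.

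The neighbours of Cox5b moved with it. The 22 other promoters within 1 Mb that had enough reads were all higher in Kdm2a-CXXC, with a median log2 difference of 1.17, between 0.23 and 1.42. From -2.53 to 0.25 Mb relative to Cox5b, 28 of 28 other promoters were higher, with a median of 1.23, whereas the 14 promoters from -10.9 to -2.68 Mb had a median of -0.41, with 2 higher. From 0.61 to 4.1 Mb the median of 31 promoters was 0.73, and from 6.003 to 29.8 Mb that of 122 promoters was 0.34. In that stretch lay Ndufb3 and Ndufs1, with 0.46 and 0.50. The input DNA of these libraries was not analysed here, so a difference in the amount of DNA and a difference in accessibility over the segment cannot be told apart. These limits of the segment were chosen after the values were seen.

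**Figure D5:**
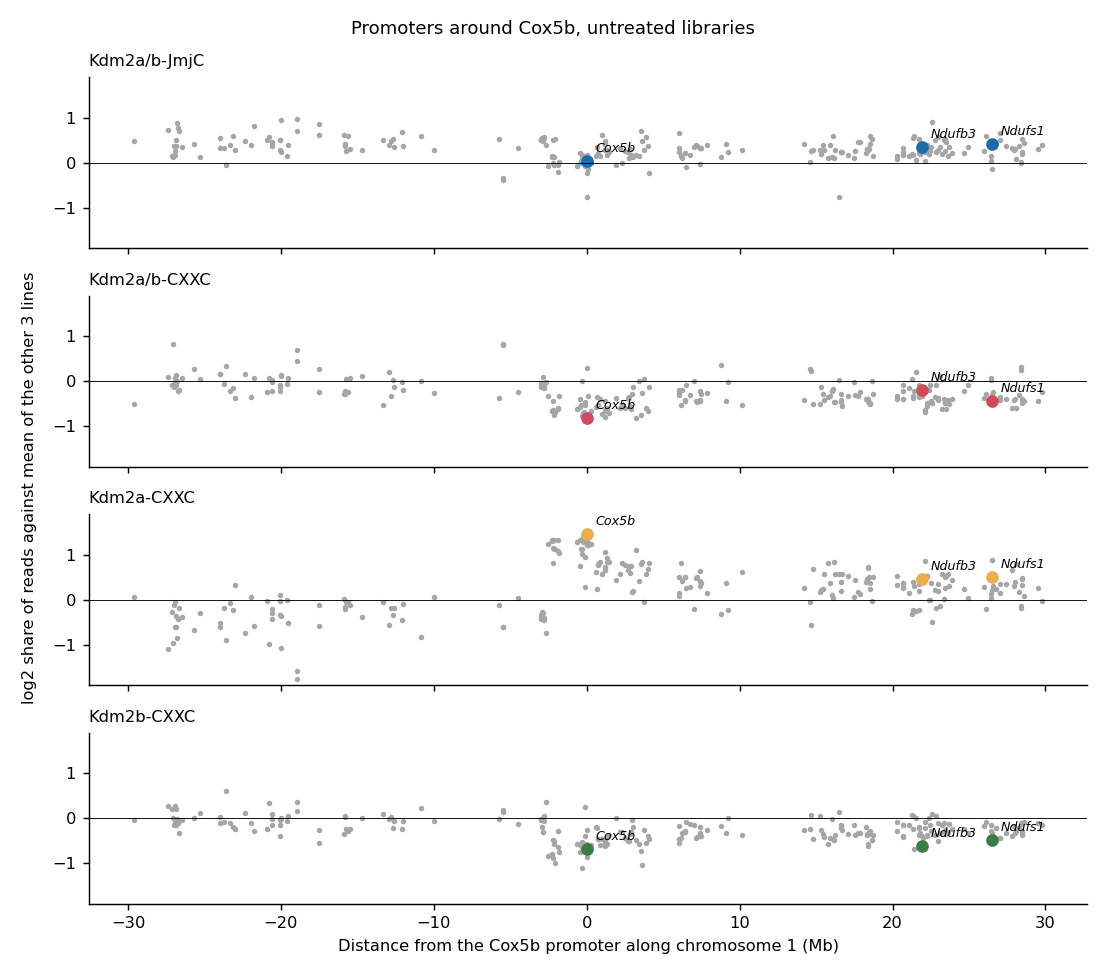
Log2 share of reads in a line against the mean of the other 3 lines (y axis) for promoters at a given distance from Cox5b along chromosome 1 (x axis, Mb), untreated libraries, with a panel for each line. Coloured points are oxidative phosphorylation promoters and grey points all others with enough reads. In Kdm2a-CXXC the values step up to about 1.2 shortly before Cox5b (1.46) and fall to 0.34 further on.

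The other 5 members on chromosome 1 differed less. In Kdm2a/b-JmjC all 6 were above the other lines (median 0.37, the same as the 0.37 of all 910 promoters of the chromosome), while all 6 were below them in Kdm2a/b-CXXC (-0.34, against -0.22) as well as in Kdm2b-CXXC (-0.36, against -0.23). As the differences of a promoter cancel over the lines, the higher and lower values here are not separate results. On chromosome 8, Ndufb7 and Ndufa13, both accessory subunits of complex I, were higher in Kdm2a/b-JmjC (0.66 and 0.37, chromosome median 0.35) and lower in Kdm2a-CXXC (-0.54 for both, chromosome median -0.27). Ndufb7 had 125 ± 4.11 reads per 1000000 in untreated Kdm2a/b-JmjC cells and 67.3 ± 7.74 in Kdm2a-CXXC (SD, n = 3 each). On chromosome 3, Ndufb5, Ndufc1 and Atp5pb were higher in Kdm2a-CXXC (0.41, 0.15 and 0.25, chromosome median 0.25). On chromosome X, Cox7b was higher in Kdm2a/b-JmjC (0.43, chromosome median 0.28), while Ndufa1 was not (-0.18).

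Smaller regions showed the same on other chromosomes; these genes were chosen after their values were seen. Cox7a1 and Cox6b1 on chromosome 7 were higher in Kdm2a/b-CXXC by 0.50 and 0.48, and of 66 and 59 promoters within 1 Mb of them 65 and 58 were higher, with a median of 0.53 in each case. Both genes lie within 1 Mb of each other, so their neighbours are largely the same promoters and make up a single region. In Kdm2a/b-JmjC Cox7a1 and Cox6b1 were lower, by -0.44 and -0.47, with medians of their neighbours of -0.34. Ndufa9 on chromosome 6 was higher in Kdm2a/b-CXXC by 0.51, and 15 of 15 neighbours were higher, with a median of 0.63. Cox7b2, a promoter with few reads, was higher in Kdm2a/b-CXXC by 0.89 and lower in Kdm2a/b-JmjC by -1.12, while the medians of its 7 neighbours were 0.21 and -0.22. Over the 75 members outside chromosomes 1, 3, 8 and X with at least 10 reads per library on average in each line, the median difference of a line from the others lay between -0.04 and 0.03. In the treated libraries the differences of the regions named here had the same sign.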

How the data were processed

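Per the labels and the study's methods, the authors aligned paired-end reads with Bowtie2 to joined mm10 and dm6 genomes, removed multiply mapped reads, PCR duplicates and blacklisted regions, counted mouse reads in 400 bp promoter intervals and divided them by a spike-in size factor corrected with input DNA. Each deposited library value is thus a signal, in calibrated reads. Deposited columns of the authors' comparisons were not used. Reads recovered from the steps of the values were whole (within 0.01) for 100% of values. They gave depth, the filter (edgeR filterByExpr, minimum count 10) and the tests on reads.

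The main test, within each line, was limma 3.58.1 (mean-variance trend) on log2(calibrated reads + 1) over all promoters passing the filter, with Benjamini-Hochberg adjustment over all of them. The added 1 understates changes of low promoters. Alternatives were TMM, median-of-ratios and total-read scaling, pseudocounts of 0.5 and 5, no filter, edgeR 4.0.16, DESeq2 1.42.0, a replicate block and leaving out each library. The fit was tested on simulated data, where it recovered fewer of the planted changes in Kdm2b-CXXC than in the other lines. The study's methods call the replicates biological, without saying whether cultures were treated separately, so p-values measure the spread between these libraries.

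Of 20633 RefSeq identifiers 99.1% matched a symbol, and 20630 intervals had sequence in RefSeq's GRCm38.p6, the same build as mm10. Words were searched on both strands. The 26 input DNA libraries were not analysed here. Groups came from sample titles. Promoters named were the highest and lowest of each complex, the 2 with the smallest p per line where none was called, 17 listed subunits, isoform sets and all members on chromosomes 1, 3, 8 and X. The members, lists and rules were chosen with earlier results of these data known.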

Additional observations from a re-analysis of the deposited data

Results flagged for a closer look

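In untreated Kdm2a/b-CXXC cells 1 library of 4 stood apart at 2 promoters, and both times it was replicate 2. Cyc1 had 127 calibrated reads there and 74.1, 77.8 and 76.5 in the others (gap to range 0.929), and Ndufa3 had 111 there and 85.9, 85.3 and 87.1 in the others (0.927). Of 90 groups of 4 libraries examined these 2 had such a gap, and chance gives one in about 1 of 20.

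At some named promoters every treated library of a line lay above the mean of its untreated libraries while every treated library of another line lay below. The difference itself was not tested, and the tables of the lines were scaled separately. Ndufb6 was higher in Kdm2a/b-CXXC (mean log2 difference 0.44) and lower in Kdm2a/b-JmjC (-0.29) and Kdm2a-CXXC (-0.25), so that the lines were -0.736 and 0.694 apart, each as the first line minus the second. Ndufa3 was lower in Kdm2a/b-JmjC than in Kdm2a/b-CXXC by the same measure (-0.775). Ndufa13 was higher in Kdm2b-CXXC (0.44) and lower in Kdm2a/b-JmjC (-0.30) and Kdm2a-CXXC (-0.70), with differences of -0.745 and -1.142. Cox5b was higher in Kdm2a/b-CXXC (0.35) and lower in Kdm2a-CXXC (-0.22), 0.5676 apart. Ndufs1 was lower in Kdm2a-CXXC (-0.22) and higher in Kdm2b-CXXC (0.28), -0.499 apart, and Uqcr11 was lower in Kdm2a/b-JmjC (-0.23) and higher in Kdm2b-CXXC (0.30), -0.528 apart. The medians of all promoters differed between these lines in the same directions, being below 0 in Kdm2a/b-JmjC (-0.21) as in Kdm2a-CXXC (-0.18), and above 0 in the 2 others (0.09 and 0.10).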

How the results depend on the processing

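The count of called promoters stayed at 0 in every line under each scaling, pseudocount and filter tried and under edgeR and DESeq2. It was 0 to 3 over the fits that left out 1 library of Kdm2a/b-JmjC: without tamoxifen replicate 1 Ndufaf3, Ndufb4 and Sdhc were called, with 622 of all tested promoters called against 13. With other scalings the median log2 fold change of the promoters in Kdm2a/b-JmjC was -0.015 (TMM), -0.012 (median of ratios) and -0.0064 (total reads), and in Kdm2a-CXXC -0.011, -0.0060 and 0.0042. The median of the promoters minus that of all tested promoters ranged from -0.018 to 0.030 in Kdm2a/b-JmjC, and from -0.035 to 0.0045 in Kdm2b-CXXC, when a library was left out. Without 1 library the median of the promoters itself ran from -0.12 to 0.26 in Kdm2b-CXXC and from -0.00044 to 0.20 in Kdm2a/b-CXXC. With stricter limits (GC of at least 55%, observed to expected CpG of at least 0.75) 64.0% of the promoters were CpG-rich, against 39.6% of all. In the central 200 bp the SP/KLF word was found in 40.4% and the NFY word in 25.8%.

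Across promoters, same-numbered libraries of the 2 treatments correlated at 0.073 or less in every line, and the numbers were not taken to pair the samples. That correlation cannot see a scale shared by all promoters of a library. Library medians of all tested promoters ranked alike by number in Kdm2b-CXXC (above) and Kdm2a-CXXC. In Kdm2a-CXXC they were -0.12, 0.0048 and 0.12 untreated and -0.37, -0.16 and 0.022 after treatment. In the other lines they did not rank alike. The main test thus leaves out any such pairing. With a replicate block 2 promoters were called in Kdm2a-CXXC, Ndufa4 (-0.51) and Ndufaf4 (-0.52), with 188 of all tested promoters called against 0, and 0 of the set in the other lines, where all tested promoters called were 62 in Kdm2a/b-JmjC and 5 in Kdm2b-CXXC. In Kdm2a/b-JmjC 6 of 6 libraries correlated best with their own number, a hint from the data and not from the design, against 4 of 8 in Kdm2a/b-CXXC, 4 of 6 in Kdm2a-CXXC and 2 of 6 in Kdm2b-CXXC. Over all tested promoters of Kdm2a/b-JmjC 13 were called, against 114 with edgeR, 71 with a pseudocount of 5 and 0 with TMM. The number of the set at an unadjusted p under 0.05 moved from 2 to 14 in Kdm2a/b-CXXC without tamoxifen replicate 4. The share of all tested promoters moved there from 4.65% to 12.9%. In Kdm2a-CXXC the number of the set moved from 5 to 25 without tamoxifen replicate 3 (all tested promoters from 8.39% to 23.0%). It fell to 1 without tamoxifen replicate 1 (against 4.53% of all tested). With a replicate block it was 21 in Kdm2a-CXXC, where 22.0% of all tested promoters then passed, against 8.39% without the block. At that threshold the set had 0 promoters in Kdm2b-CXXC, 6 with TMM and 8 with a replicate block, with which 9.96% of all tested promoters passed, against 0.669% without it. It had 19 in Kdm2a/b-JmjC (against 20.6% of all tested promoters), 5 with TMM (against 5.63%) and 9 without tamoxifen replicate 2 (against 13.8%). Low promoters rested on few reads, such as the 2 to 28 of Cox6a2.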
